A study of Drosophila melanogaster with 14 samples.

Results

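RNA of adult Drosophila melanogaster of the Shal495 line was compared with RNA of the w1118 line, and the comparison covers every gene with an FPKM of 1 or more in at least 2 of the 4 libraries (2 of each line). FPKM, fragment counts scaled by gene length and by library size, is the level the authors deposited. This rule kept 9628 of the 14791 genes listed. The study holds 14 libraries in 7 groups of 2, and the other 10 libraries are of flies with elav-Gal4, UAS-APP or UAS-TrpA1 transgenes, in tables normalized separately. Its design text names downstream pathways of APP, Shal495 and TrpA1, and of the hyperexcitability seen in such flies, as the question. The w1118 flies carry that disrupted allele of the white gene w and are otherwise labelled as the control group. The Shal495 flies carry the genotype label w;+;Shal495, that is a w allele that is not named and Shal495 on the third chromosome. In Shal495 replicate 2 the genotype is given as Shal496 but the title as Shal495, and the library was left in the Shal495 group. All 4 libraries are labelled as adult males aged 5 to 7 days, about 50 flies each, kept at room temperature on standard food. The sample labels name brains, dissected and fixed in 4% paraformaldehyde, whereas the design text names heads. The labels do not say what the Shal495 lesion is, whether the lines share a genetic background, or whether the replicates of a line were collected separately. The line and its background therefore cannot be told apart, and p-values measure the spread between these libraries, which may be technical.

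Shal encodes the fly Kv4 channel, which carries a fast, inactivating A-type potassium current in the cell body and dendrites of neurons. This current opens below the firing threshold, delays the first spike and limits repetitive firing. In mammals, Kv4 channels work in a complex with calcium-binding KChIP proteins and with DPP6 or DPP10, which are inactive relatives of dipeptidyl peptidases that move the channel to the surface and speed its kinetics.

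The libraries held 17469057 and 18301767 fragments in w1118 and 18146816 and 18292297 in Shal495, as recovered from the FPKM values, so that 3 counts in a gene of 1 kb correspond to 0.164 to 0.172 FPKM. Neuronal markers were present at similar summed levels in all 4 libraries (607 to 629 FPKM over 9 genes), as were glial markers (1299 to 1516 over 8 genes). These sums rest largely on nSyb (351 to 369 FPKM) and Gs2 (792 to 985 FPKM). Single markers moved both ways, with ChAT, repo and wrapper lower and alrm and moody higher in both Shal495 libraries. Photoreceptor markers were also abundant (34800 to 40360 over 11 genes) and gut markers were present (1105 to 1906 over 12 genes), so that the RNA was not that of neurons alone. The replicates differed beyond counting noise, with a mean chi-square per gene of 24.53 in w1118 and 28.11 in Shal495 where counting noise alone gives 1, and medians of 2.504 and 4.074. Both lines have a library that stands apart from its replicate.

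**Figure D1:**
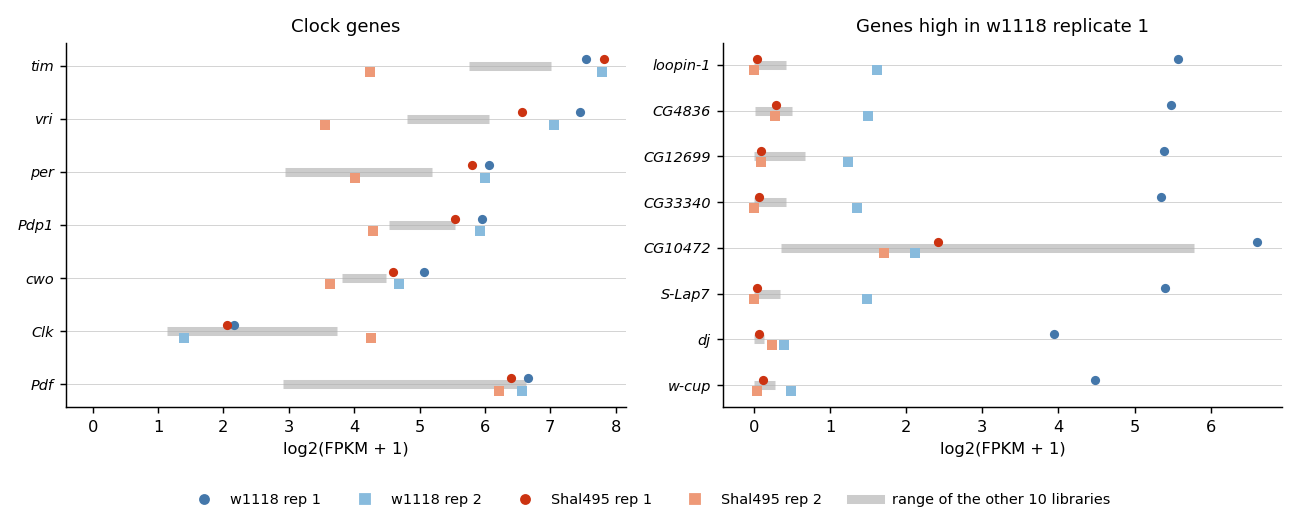
Levels on the log2(FPKM + 1) axis of clock genes (left) and of genes high in w1118 replicate 1 (right) in each of the 4 libraries, with the range of the other 10 libraries of the series in grey. In Shal495 replicate 2 tim, vri and per lie below the other 3 libraries and Clk above them; on the right, w1118 replicate 1 lies far above the other 3.

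The library of w1118 replicate 1 held transcripts of sperm-forming cells. In this library alone, 1005 genes reached 1 FPKM, against 92, 79 and 57 genes in w1118 replicate 2, Shal495 replicate 1 and Shal495 replicate 2. The sperm leucyl aminopeptidase relative loopin-1 stood at 46.5 FPKM there and at 2.06, 0.0257 and 0 in the others in the same order. S-Lap7, of the same sperm family, stood at 41.2, 1.80, 0.0260 and 0 FPKM, and don juan (dj), a sperm-tail gene, at 14.3, 0.316, 0.0455 and 0.181. Of the 5 genes with the widest gap between the w1118 libraries, CG12699, CG33340, CG4836 and loopin-1, had this profile, at 39.8 to 46.5 FPKM in replicate 1 and 1.36 to 2.06 in replicate 2. The fifth, CG10472, stood at 96.8 and 3.33 FPKM in w1118 and at 4.36 and 2.28 in Shal495. Summed markers of testis and male accessory gland came to 46.5, 2.85, 1.20 and 1.93 FPKM, of which betaTub85D and Mst87F made up nearly the whole, and bam was at or near 0 in each library. No gene of these 5 passed the threshold between the lines (adjusted p = 0.232 to 0.46).

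The library of Shal495 replicate 2 differed from its replicate in the circadian clock. The transcript of timeless (tim), which oscillates over the day and with period represses its own transcription, stood at 185 and 219 FPKM in w1118, at 225 in Shal495 replicate 1 and at 18 in Shal495 replicate 2. The same step was seen in vri, at 174, 132, 94.3 and 10.7 FPKM, and in per, at 65.9, 63.0, 54.6 and 15.1. Clk, the activator of all of these, ran the other way at 3.50, 1.65, 3.14 and 18.2 FPKM. The neuropeptide of clock neurons, Pdf, stood at 100.2, 94.3, 83.5 and 73.6 FPKM. Of 16 clock genes tested, 0 passed the threshold in limma and 2 had an unadjusted p under 0.05. Over all genes tested these were 2.37% and 1880 of 9628. Limma-voom on recovered fragments of the same genes called 0 of the 16. Sampling hours are not given in the labels. The other genes with the widest gap between the Shal495 libraries were SPH93 (36.6 and 0.0344 FPKM), CG7214 (7.94 and 140), the antifungal peptide gene Drs (186 and 11.3) and CG34134 (18.9 and 198), and none of them passed the threshold.

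Shal (3L:19566851-19584568, minus strand, BDGP6) stood at 27.7 and 27.1 FPKM in w1118 and at 18.3 and 20.0 in Shal495. Both mutant libraries were lower than both controls. The log2 difference of FPKM + 1, Shal495 minus w1118, was -0.50 ± 0.093 (SE; 95% interval -0.74 to -0.26), and it did not pass the threshold of an adjusted p under 0.05 over all genes tested (adjusted p = 0.0795). In the other 10 libraries Shal ran from 9.70 to 33.5 FPKM, which covers both lines. The upper end came from the elav-Gal4 UAS-APP libraries (32.3 and 33.5 FPKM). In the rest of the 10 Shal did not exceed 19.1 FPKM, below both w1118 libraries. The white gene w (X:2790599-2796466, minus strand), an eye pigment transporter, stood at 0.122 and 0.0465 FPKM in w1118 and at 21.1 and 23.3 in Shal495. Its log2 difference was 4.42 ± 0.142 (adjusted p = 0.00115). The Shal495 libraries thus hold w mRNA within the range of the other 10 libraries, 16 to 47.3 FPKM. The neuronal gene elav stood at 11.7 and 11.6 against 11.4 and 10.9 FPKM, a log2 difference of -0.06 ± 0.099 that changed sign with the scaling.

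Genes of the channel complex other than Shal itself were measured as well. Dpp10 (2L:6568400-6601068, minus strand), the fly relative of the mammalian Kv4 subunit genes, stood at 24.4 and 25.9 FPKM in w1118 and at 6.57 and 6.61 in Shal495. The lines did not overlap, and the replicates differed by less than 2 FPKM. Its log2 difference was -1.78 ± 0.098 (adjusted p = 0.0049). This gene was named after its values were seen. The call held without w1118 replicate 2 and without Shal495 replicate 1, and was lost without w1118 replicate 1 (adjusted p = 0.0684) and without Shal495 replicate 2 (adjusted p = 0.0608). Across the other 10 libraries Dpp10 ran from 3.49 to 35.1 FPKM with a median of 4.58, so levels like those of both lines occur there. CG5890, a relative of the KChIP genes, stood at 6.46 and 6.95 against 8.24 and 7.51 FPKM and did not pass (adjusted p = 0.427).

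No potassium channel gene passed the threshold. The list of A-type and other voltage-gated potassium channels and some partners held 19 tested genes. It did not include Dpp10, and it held sle, which is not a channel gene. In this list 0 genes passed the threshold in limma (beside 2.37% of all genes tested), and voom on recovered fragments called 0. An unadjusted p under 0.05 was found for 5, sle among them, beside 1880 of 9628 genes tested. The median log2 difference was -0.02, against -0.07 over all genes tested. Shaker (Sh), which carries the axonal A-type current, stood at 13.7 and 13.2 FPKM in w1118 and at 17.1 and 17.3 in Shal495, with a log2 difference of 0.33 ± 0.092 (adjusted p = 0.151). Its subunit Hyperkinetic (Hk) stood at 36.7 and 39.7 against 28.4 and 32.5 FPKM (adjusted p = 0.202). The delayed rectifier Shab stood at 49.9 and 47.9 against 42.2 and 47.5 FPKM, where the libraries of the lines nearly met. The calcium-activated channel slo, the ether-a-go-go channels eag and sei, and KCNQ had log2 differences of -0.16 to 0.37. Of 12 inward rectifier and leak potassium channels 0 passed in limma or voom, with 3 under an unadjusted p of 0.05. The leak channel Ork1 stood at 8.26 and 8.84 against 12.9 and 10.7 FPKM (adjusted p = 0.194), and sand at 5.15 and 5.64 against 3.65 and 4.15.

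Over all 9628 genes tested, 228 passed the threshold, 112 raised and 116 lowered in Shal495, and the median log2 difference was -0.07. That is 2.37% of the genes tested, 1.16% raised and 1.2% lowered. Of the 228, 164 differed by at least 1 on the log2 scale and 66 by at least 2. At an unadjusted p under 0.05 there were 1880 genes. The libraries decide much of this count. It was 25 without w1118 replicate 1, 138 without w1118 replicate 2, 45 without Shal495 replicate 1 and 21 without Shal495 replicate 2, with n = 1 in the reduced line. All 228 kept their direction in each of these 4 fits, and 15 of them passed in each. Those 15 are raised betaTry, Yp2, sordd2, Cyp4p2, Yp1, tobi, w and Drsl4 and lowered CG18628, Crg-1, AttB, CG32523, lncRNA:CR46123, CG9150 and CG13794. In the called genes the libraries of the lines did not overlap, so leaving out 1 library could not change the direction. The kept direction of all 228 was thus fixed in advance and is no check. With 2 libraries per line an exact permutation test of a single gene cannot go below p = 0.333.

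**Figure D2:**
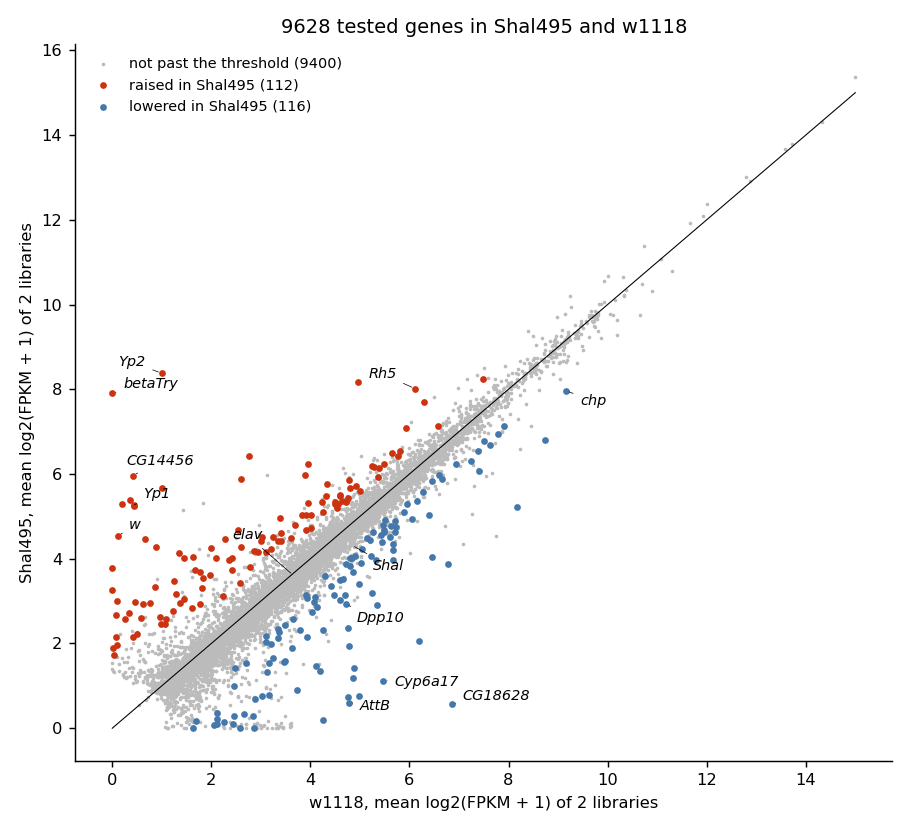
Mean log2(FPKM + 1) over the 2 w1118 libraries (horizontal) and the 2 Shal495 libraries (vertical) for the 9628 genes tested, with raised genes in red, lowered genes in blue and the line of equal levels in black. Most genes lie along the line, Shal lies slightly below it, and betaTry, Yp2 and CG18628 lie far from it.

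The most raised genes were nearly silent in w1118. The digestive protease gene betaTry (2R:11346325-11347395) was listed at 0 in both w1118 libraries and at 298 and 191 FPKM in Shal495. Its log2 difference of 7.90 depends on the added 1, since w1118 is at 0 (adjusted p = 0.000923). The yolk protein gene Yp2 (X:10050951-10052636) stood at 0.955 and 1.05 FPKM in w1118 and at 313 and 351 in Shal495, a log2 difference of 7.38 ± 0.101 (adjusted p = 0.000147). Yp1 (X:10053811-10055498), its neighbour, stood at 0.426 and 0.305 against 38.2 and 37.2 FPKM, a log2 difference of 4.83 ± 0.123. CG14456 (3L:22687222-22688288) rose from 0.607 and 0.116 to 63.1 and 59.8 FPKM, a log2 difference of 5.54 ± 0.202 (adjusted p = 0.00141). In the other 10 libraries CG14456 did not exceed 0.325 FPKM, so its level in Shal495 stands alone in the series. The cytochrome P450 gene Cyp4p2 (2R:9237512-9239831) rose from 0.193 and 0.369 to 44.1 and 38.3 FPKM, above the 11.3 FPKM that it reached elsewhere. sordd2 (X:15796908-15799162) rose from 0.0802 and 0.230 to 40.1 and 36.1 FPKM, levels like the 26.8 to 57.9 of the other libraries. The alpha-glucosidase gene tobi (3R:25344761-25346921), a target of insulin and adipokinetic hormone signalling, rose from 0.381 and 0.338 to 46.1 and 29.7 FPKM, and the other libraries held 26.2 to 1235.

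The rest of the 12 most raised were CG4962, w, CG32640, CG3397 and CG34215. CG4962 stood at 0.888 and 1.13 against 70.3 and 35.2 FPKM, CG32640 at 0.369 and 0.821 against 22.5 and 19.5, and CG34215 at 6.58 and 5.05 against 84.8 and 84.5. CG3397 was listed at 0 in both w1118 libraries and at 11 and 14.8 FPKM in Shal495. Their log2 differences, w included, ran from 3.66 to 4.66, and in each the libraries of the lines lay far apart. Calls lost with 1 library left out were those of CG14456 (adjusted p = 0.0569), CG34215 (0.0567) and CG3397 (0.0637) without Shal495 replicate 2, of CG32640 without Shal495 replicate 1 (0.0582) and replicate 2 (0.0729), and of CG4962 without w1118 replicate 1 (0.0661) and in voom (0.057).

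The most lowered gene was CG18628 (3L:10639740-10640136), at 118 and 111 FPKM in w1118 and 0.660 and 0.327 in Shal495, a log2 difference of -6.28 ± 0.144 (adjusted p = 0.000893). In the other 10 libraries it did not exceed 1.36 FPKM, so here w1118 is the line that stands alone. Crg-1 (X:3793223-3797339), a forkhead transcription factor gene first described as circadianly regulated, stood at 29.9 and 31.5 against 0.896 and 0.533 FPKM, a log2 difference of -4.21 ± 0.153. The P450 gene Cyp6a17 (2R:14873953-14875739), known for a part in temperature preference, stood at 43.5 and 43.5 FPKM in w1118 and at 0.287 and 2.69 in Shal495. It ran from 21.5 to 86.5 FPKM elsewhere, so that the loss was found in Shal495. Cyp6a20 (2R:14882118-14884046), which lies close by and is known for a part in aggression, stood at 98.7 and 119 against 13.1 and 14.2 FPKM, a log2 difference of -2.91 ± 0.122. The attacin gene AttB fell from 26.4 and 26.5 to 0.376 and 0.684 FPKM, a log2 difference of -4.17 ± 0.152 (adjusted p = 0.00141). CG13794, of the family of sodium-dependent neurotransmitter transporters, stood at 29.5 and 27.8 against 1.66 and 1.70 FPKM and at 15.4 to 25.2 elsewhere.

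**Figure D3:**
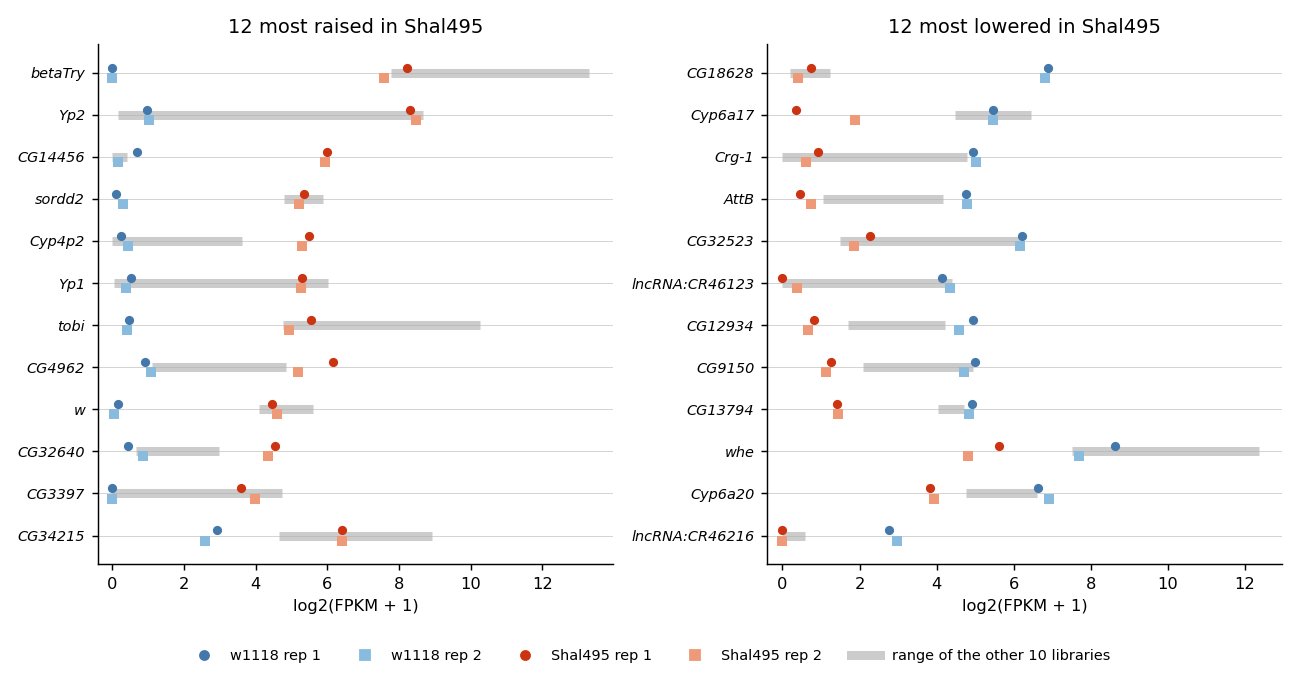
Levels on the log2(FPKM + 1) axis of the 12 most raised (left) and 12 most lowered genes (right) in the 2 libraries of each line, with the range of the other 10 libraries, normalized separately, in grey. In each gene the libraries of the lines are well separated; for CG18628 the w1118 points lie outside the grey range, and for CG14456 the Shal495 points do.

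The other lowered genes of this rank were CG32523, lncRNA:CR46123, CG12934, CG9150, whe and lncRNA:CR46216. CG32523 stood at 73.8 and 70.3 against 3.83 and 2.64 FPKM, CG9150 at 30.9 and 25.3 against 1.39 and 1.19, and CG12934 at 29.6 and 22.8 against 0.760 and 0.580. The noncoding lncRNA:CR46123 stood at 16.8 and 19.4 against 0 and 0.297 FPKM, and lncRNA:CR46216 at 5.79 and 6.81 against 0 in both. The most abundant, whe, fell from 398 and 207 to 48.6 and 27.2 FPKM. With 1 library left out, which leaves n = 1 in a line, several calls were lost. Without Shal495 replicate 2, CG12934 (adjusted p = 0.0569), Cyp6a20 (0.0569), lncRNA:CR46216 (0.0729) and whe (0.192) no longer passed. Without Shal495 replicate 1, lncRNA:CR46216 (0.0554) and whe (0.0985) did not pass. Without w1118 replicate 1, Cyp6a17 (0.129) and whe (0.126) did not, and without w1118 replicate 2, Cyp6a17 (0.0908) did not.

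A few lowered genes of housekeeping function, named after their values were seen, were steady between replicates. IntS12, a subunit of the Integrator complex that trims small nuclear RNAs, stood at 25 and 27.8 against 3.21 and 2.54 FPKM, a log2 difference of -2.82 ± 0.139 (adjusted p = 0.0035). The gene sicily, whose product helps assemble mitochondrial complex I, stood at 49.3 and 50.0 against 14.1 and 15.5 FPKM, a log2 difference of -1.68 ± 0.092. Across the other 10 libraries, IntS12 ran from 2.28 to 10.2 and sicily from 8.02 to 17.0 FPKM, so the Shal495 levels lay within that range and the w1118 levels above it. Without w1118 replicate 1, neither passed (adjusted p = 0.0528 for IntS12 and 0.0645 for sicily).

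Where a line stood against the other libraries was counted for each gene. Among the 112 raised genes, 42 had only the w1118 libraries outside the range of the other 10, 28 only the Shal495 libraries, 13 both and 29 neither. The 116 lowered genes divided as 50, 21, 12 and 33. Over 9605 genes tested with values in all libraries, 17.5% had w1118 alone outside, 6.44% Shal495 alone, 14.6% both and 61.5% neither. These levels come from tables normalized separately, so the counts are a description with no test. Neuronal genes varied widely among the other 10 libraries, with ChAT at 2.02 to 41.4 FPKM and Sh at 1.90 to 41.8. For such genes that range is a loose reference.

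Of 17 genes listed as yolk and female-biased, 5 were tested, and of these 3 rose and 1 fell. Yp1 and Cp19 reached 1 FPKM only in the line where they were high, so the filter on low values kept changed members, and the share is not set against the 2.37% of all genes. Yolk proteins are secreted by the female fat body and the ovary and are taken up into eggs. Yp3 stood at 34.4 and 26.5 FPKM in w1118 and at 225 and 365 in Shal495, a log2 difference of 3.20 ± 0.264 (adjusted p = 0.0144), and with Yp1 and Yp2 all yolk protein genes were higher in both Shal495 libraries. Yp1 and Yp2 passed with each library left out. For Yp3 the call was lost without w1118 replicate 1 (adjusted p = 0.0645) and without Shal495 replicate 2 (0.0729). The eggshell gene Cp19 went the other way, from 7.47 and 3.69 to 0.254 and 0.252 FPKM (adjusted p = 0.0431). It did not pass in voom (0.0598), nor without w1118 replicate 1 (0.0789), Shal495 replicate 1 (0.12) or Shal495 replicate 2 (0.2). Of the chorion and late egg list, 3 members were tested and Cp19 was the one that passed. The oocyte genes osk and bcd and the vitelline membrane gene Vm26Aa were at or near 0 in all 4 libraries, with a highest value of 0.0740 FPKM. In the other 10 libraries Yp2 ran from 0.129 to 404 FPKM with a median of 0.478, so that levels like those of both lines occurred elsewhere.

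RNAs of male dosage compensation were present in both lines. The noncoding lncRNA:roX1, which coats the male X chromosome, stood at 320 and 303 FPKM in w1118 and at 304 and 279 in Shal495, a log2 difference of -0.10 ± 0.097 (adjusted p = 0.639). Its partner lncRNA:roX2 fell from 50.9 and 44.3 to 24.4 and 19.6 FPKM, a log2 difference of -1.09 ± 0.141 (adjusted p = 0.0396), and did not pass with any 1 library left out (adjusted p = 0.0815 to 0.176). The male-specific protein gene msl-2 stood at 16.1 and 18.6 against 14.9 and 15.8 FPKM (adjusted p = 0.488). Among 19 tested male-biased genes, roX2 was the one past the threshold (5.26%, beside 2.37% of all genes). Other members, such as Mst84Dc at 16.7, 1.35, 0 and 0 FPKM, followed w1118 replicate 1. Fat body markers, which include the yolk proteins, summed to 354 and 300 FPKM in w1118 and to 1034 and 1087 in Shal495. Without Yp1, Yp2 and Yp3 the other 5 summed to 318 and 272 FPKM in w1118 and to 459 and 334 in Shal495. Of these, Lsp2 and fit stayed below 0.6 FPKM in each library, Lsp1beta stood at 5.64 and 1.21 against 21.4 and 11.8, and apolpp stood at 111 and 110 against 160 and 139. What other tissue or sex contributed to the yolk protein result was not tested.

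Of 19 fat body storage genes, 0 passed in limma, 1 in voom, and 7 had an unadjusted p under 0.05. Over all genes tested, 2.37% passed in limma and 1880 of 9628 had an unadjusted p under 0.05. The median log2 difference of the 19 was 0.36, with 16 above 0, beside 3546 of 9628 genes tested. Malic enzyme Men stood at 146 and 150 against 203 and 220 FPKM (adjusted p = 0.0706), and the lipid droplet gene Lsd-2 at 87 and 82.1 against 108 and 113 (adjusted p = 0.101). Both were higher in both Shal495 libraries, and both were named for the smallest p of the list.

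Antimicrobial peptide genes of the Imd pathway included 3 that fell in Shal495. The Imd pathway senses Gram-negative bacteria and switches on peptides such as attacins, cecropins and diptericins. Of 16 members tested, among 21 listed, 3 fell (18.75%, against 1.2% of all genes lowered) and 0 rose. A negative log2 difference was found in 15, beside 6082 of 9628 genes tested, and the median was -0.77. The 3 that fell reached 1 FPKM in w1118 alone, so the filter on low values kept them through the line where they were high, and their share cannot be read against that of all genes. Beside AttB, AttA fell from 3.55 and 3.11 to 0.0698 and 0.277 FPKM, a log2 difference of -1.89 ± 0.204 (adjusted p = 0.0293). CecA2 fell from 5.32 and 7.08 to 0.155 and 0.308 FPKM (adjusted p = 0.0136). AttC stood at 19.9 and 40.9 against 8.33 and 6.07 FPKM and DptB at 17.5 and 49.5 against 7.98 and 7.06, where the gap between the w1118 libraries was wide and neither passed. AttB passed with each library left out. AttA did not pass in any such fit (adjusted p = 0.0608 to 0.121), and CecA2 passed only without w1118 replicate 2 (0.0552 to 0.115 in the others). AttA and AttB are near-identical neighbours, so the split of fragments between them is uncertain.

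Toll-dependent peptides, which answer fungi and Gram-positive bacteria, moved both ways. Of 24 tested, 1 rose and 1 fell (8.33%, against 2.37% of all genes), and the median was -0.01. Drosomycin-like Drsl4 stood at 14.9 and 13.9 FPKM in w1118 and at 69.4 and 79.4 in Shal495, a log2 difference of 2.29 ± 0.105 (adjusted p = 0.00289). It ran from 74.8 to 508 FPKM elsewhere with a median of 371, so that both w1118 libraries and Shal495 replicate 1 lay below that range and Shal495 replicate 2 near its lower end. The Bomanin gene BomS2 fell from 529 and 347 to 126 and 97.1 FPKM (adjusted p = 0.0381), below the 268 FPKM that was its lowest value elsewhere. It did not pass without w1118 replicate 1 (0.0894), Shal495 replicate 1 (0.102) or Shal495 replicate 2 (0.188). BaraA1, another Toll-induced peptide gene, fell from 9.19 and 6.93 to 0.808 and 0.660 FPKM, a log2 difference of -2.37 ± 0.189 (adjusted p = 0.0133), and was lost without any of the same 3 libraries (0.0684 to 0.119). BaraA1 is outside the list of 24, as are GNBP1, ea and Toll-7, and all of these were named after their values were seen. Upstream of the Toll-dependent peptides, the recognition protein gene GNBP1 rose from 10.0 and 9.31 to 20.1 and 21.0 FPKM. The serine protease gene ea fell from 20.3 and 22.5 to 7.76 and 7.98 FPKM. The receptor gene Toll-7 rose from 1.33 and 1.57 to 7.96 and 7.97 FPKM (adjusted p = 0.012). A part of ea or Toll-7 in the induction of these peptides was not tested. Neither GNBP1 nor ea passed with any 1 library left out (0.0741 to 0.137), and Toll-7 passed without w1118 replicate 2 but in none of the other 3 fits (0.0769 to 0.119).

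Of the 11 tested members of the list of stress-induced Turandot peptides and stress kinases, 2 fell (18.18%, against 1.2% of all genes lowered) and 0 rose. A negative log2 difference was found in 9 of them, beside 6082 of 9628 genes tested. TotM reached 1 FPKM in w1118 alone and passed the filter through that line. The share called therefore cannot be read against that of all genes. TotM fell from 5.50 and 9.30 to 0.799 and 0.594 FPKM (adjusted p = 0.0335) and TotX from 45.7 and 33.0 to 13.3 and 16.2 (adjusted p = 0.0451). Neither passed in voom (adjusted p = 0.0508 for each), which called 0 of the 11, or with any 1 library left out (0.0533 to 0.175). Both Shal495 values were below the lowest of the other 10 libraries for each gene. The antimicrobial Listericin, outside this list and named after its values were seen, fell from 178 and 153 to 90.3 and 95.1 FPKM (adjusted p = 0.0396). The small heat shock protein gene Hsp67Bc fell from 26.1 and 30.2 to 10.4 and 13.3. It was 1 call among 31 chaperones tested (3.23%, against 2.37% of all genes). Each was lost when any 1 library was left out (0.0735 to 0.175). The median over the chaperones was -0.21, and 25 of 31 were below 0.

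**Figure D4:**
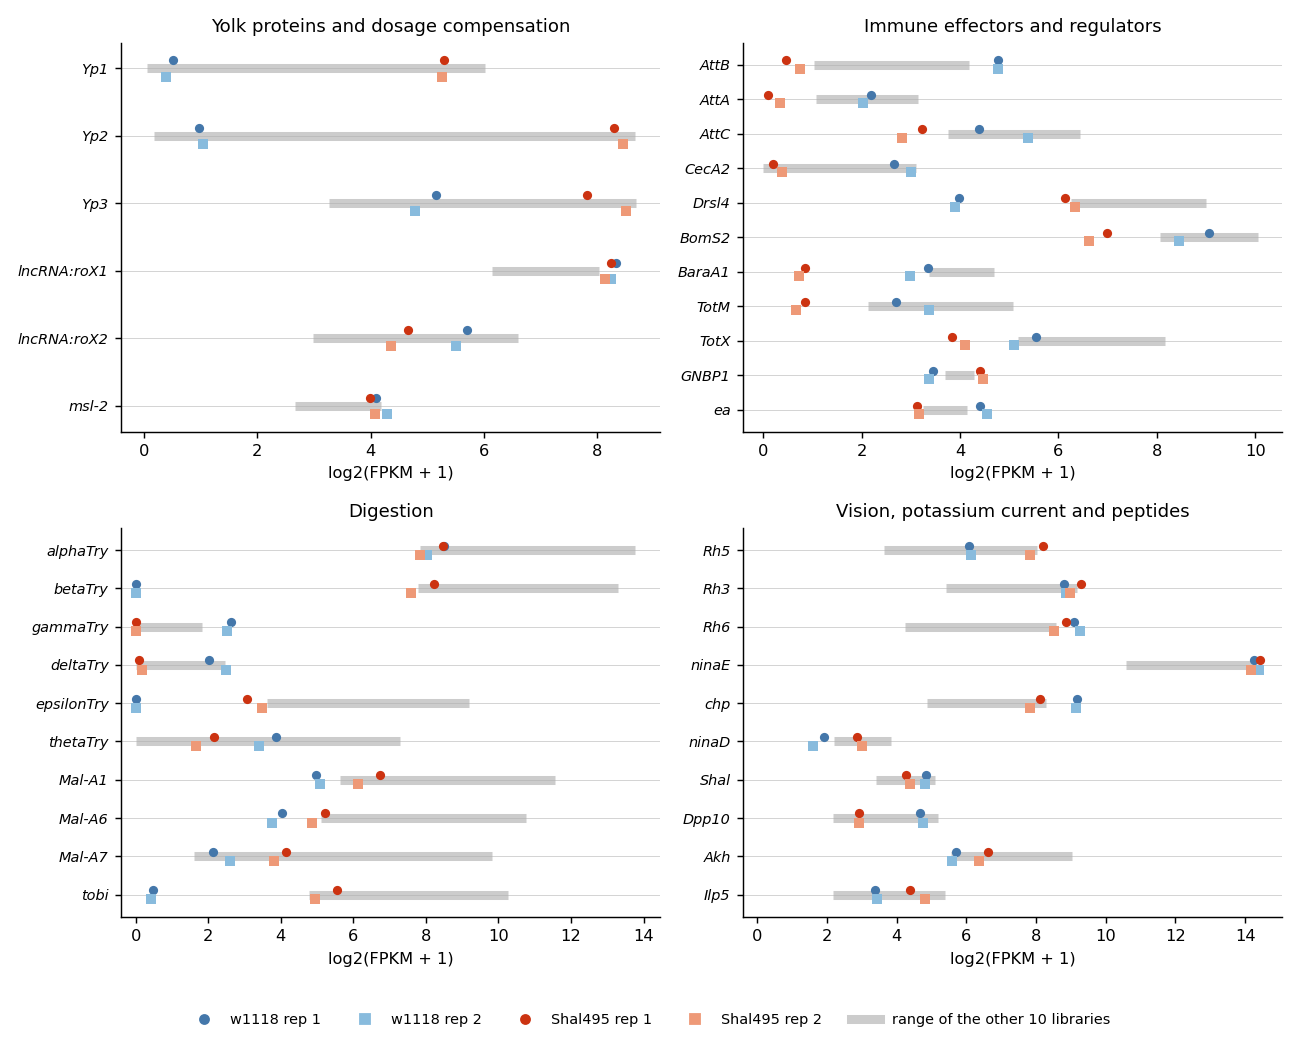
Levels on the log2(FPKM + 1) axis of named genes by role in the 2 libraries of each line, with the range of the other 10 libraries in grey. Yolk protein genes lie higher in Shal495 while roX1 and msl-2 overlap or nearly so, attacins and Turandots lie lower, trypsins divide, and Rh5 lies higher while chp and Dpp10 lie lower.

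Digestive enzyme genes changed in both directions, 4 raised and 3 lowered of 38 tested among 58 listed (18.42%, against 2.37% of all genes). Of these 7, 4 reached 1 FPKM in 1 line alone and passed the filter through that line. Trypsins are secreted by the midgut and cut dietary protein. Beside betaTry, epsilonTry was listed at 0 in both w1118 libraries and at 7.30 and 10.1 FPKM in Shal495 (adjusted p = 0.00768). The neighbouring gammaTry went from 5.16 and 4.72 FPKM to 0 in both Shal495 libraries (adjusted p = 0.00994), and deltaTry from 3.04 and 4.59 to 0.0680 and 0.135. The most abundant trypsin gene, alphaTry, stood at 360 and 262 FPKM in w1118 and at 353 and 226 in Shal495, so that the libraries overlapped. The genes of this cluster are near-identical, and the share of fragments each received is uncertain. Elsewhere betaTry ran from 219 to 10129 FPKM, so the absence was found in w1118. The protease gene Jon25Bii rose from 0.320 and 1.16 to 6.23 and 7.46 FPKM, and thetaTry fell from 13.5 and 9.45 to 3.42 and 2.14. The maltase genes Mal-A1, Mal-A6 and Mal-A7, named after their values were seen, were each higher in both Shal495 libraries. Of these Mal-A7 passed, at 3.37 and 5.01 against 16.7 and 13.1 FPKM (adjusted p = 0.0396). Mal-A1 stood at 30.2 and 32.6 against 106 and 68.2 (adjusted p = 0.0569). Of the 7 calls, 1 remained without w1118 replicate 1, 4 without w1118 replicate 2, 1 without Shal495 replicate 1 and 1 without Shal495 replicate 2, with adjusted p of up to 0.197. Voom called 9 of the 38, with Mal-A1 (0.0408) and Mal-A6 (0.0388) past the threshold and thetaTry (0.0508) not. Summed gut markers were 1906 and 1357 FPKM in w1118 and 1579 and 1105 in Shal495, so the groups overlapped. The sum includes betaTry, at 0 in w1118 and at 298 and 191 FPKM in Shal495, and the overlap depends on that gene. Other gut markers went both ways. The protease gene yip7 stood at 400 and 224 FPKM in w1118 and at 107 and 85.1 in Shal495, while Mal-A1 was higher in Shal495.

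Enzymes that oxidize or conjugate foreign compounds were another group with calls in both directions. Of 64 cytochrome P450 genes tested, 5 rose and 3 fell (12.5%, against 2.37% of all genes), and 1 of these reached 1 FPKM in 1 line alone. Beside Cyp4p2, the raised members were Cyp9h1 (7.68 and 6.45 against 22.0 and 18.8 FPKM), Cyp12c1 (4.62 and 4.09 against 10.9 and 13.9), Cyp6a13 (9.65 and 8.62 against 17.8 and 23) and Cyp6a14 (1.26 and 0.923 against 4.02 and 4.99). Beside Cyp6a17 and Cyp6a20, Cyp9f3 fell from 13.7 and 14.3 to 7.73 and 7.86 FPKM. Cyp6a23, a close copy of Cyp6a17 beside it, stood at 6.37 and 7.35 against 20.3 and 35.2 FPKM (adjusted p = 0.0504), and fragments of the pair may be shared. Without each library in turn, 2 or 3 of the 8 P450 calls remained, with adjusted p of up to 0.235. Among 30 glutathione S-transferases 6.67% were called, and among 19 UDP-glycosyltransferases 15.8%, against 2.37% of all genes. GstE14 rose from 24.6 and 26 to 40.5 and 38.1 FPKM and GstE4 fell from 163 and 139 to 79.1 and 77.3. Of 19 UDP-glycosyltransferases, Ugt36F1 rose from 2.21 and 2.99 to 8.56 and 13.3 FPKM, while Ugt36E1 fell from 27.7 and 22.3 to 9.27 and 6.58 and Ugt35C1 from 29.0 and 26 to 15.3 and 15. None of these 5 calls remained with any 1 library left out (0.056 to 0.254), and voom ended those of GstE14 (0.0551) and Ugt36F1 (0.0503). The antioxidant list had 0 calls in limma or voom among 19 genes, with 3 at an unadjusted p under 0.05. Such a p was found for 1880 of all 9628 genes tested.

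In the visual system, 2 genes rose and 1 fell of 36 tested, against 2.37% of all genes. The blue-sensitive rhodopsin Rh5, expressed in a subset of R8 photoreceptors, stood at 66.9 and 69.6 FPKM in w1118 and at 293 and 226 in Shal495, a log2 difference of 1.90 ± 0.143 (adjusted p = 0.0117). The green-sensitive rhodopsin Rh6 of the other R8 cells stood at 547 and 616 against 468 and 363 FPKM and did not pass (adjusted p = 0.198). The ultraviolet rhodopsin Rh3 stood at 449 and 467 against 626 and 501 FPKM (adjusted p = 0.355), and the major rhodopsin ninaE at 19500 and 21709 against 22058 and 18417 FPKM, with overlapping libraries. The photoreceptor adhesion protein gene chp fell from 574 and 563 to 274 and 227 FPKM, a log2 difference of -1.18 ± 0.125 (adjusted p = 0.0286). In bulk RNA, fewer cells of a type and less RNA per cell cannot be told apart. The scavenger receptor gene ninaD, needed to take up carotenoids for the chromophore, rose from 2.79 and 2.05 to 6.29 and 7.00 FPKM (adjusted p = 0.0489). Outside the list of 36, and named after its values were seen, is the transcription factor gene glass (gl), needed for photoreceptor identity. It fell from 34.6 and 34.2 to 21.1 and 21.8 FPKM, a log2 difference of -0.65 ± 0.083 (adjusted p = 0.0384). The call of Rh5 was lost without w1118 replicate 1 (0.0747), and those of chp, ninaD and gl with any 1 library left out (0.0768 to 0.219). Of the 19 eye pigment genes w was the one past the threshold (5.26%), and it passed the filter through Shal495 alone.

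Smell-related genes included 4 lowered and 0 raised odorant-binding protein genes of 29 tested (13.79%, against 1.2% of all genes lowered). Obp49a fell from 214 and 224 to 125 and 120 FPKM, a log2 difference of -0.83 ± 0.083 (adjusted p = 0.0262). Obp19b fell from 50.1 and 53.2 to 27.1 and 21.0, Obp59a from 27.6 and 21.1 to 10.5 and 10.5, and Obp8a from 8.15 and 7.14 to 3.42 and 2.75 FPKM. None of the 4 calls remained with any 1 library left out (0.06 to 0.228), and voom ended that of Obp8a (0.0935). Of 54 chemoreceptor genes 0 passed in limma or voom and 9 had an unadjusted p under 0.05. Over all genes tested, 2.37% passed in limma and 1880 of 9628 had such a p. The odorant co-receptor Orco stood at 102 and 103.5 against 81.8 and 67.0 FPKM (adjusted p = 0.131), and Or65b at 3.61 and 3.85 against 1.35 and 0.940 (adjusted p = 0.0596).

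Among neuropeptide genes, 2 rose and 0 fell of 39 tested (5.13%, against 2.37% of all genes). Of the 39, 29 had a positive log2 difference, beside 3546 of 9628 genes tested. The median was 0.27 against -0.07 over all genes. At an unadjusted p under 0.05 there were 22 of these 39 genes, beside 1880 of 9628. The adipokinetic hormone gene Akh, whose product mobilizes stored lipid and sugar, stood at 51.3 and 47.0 FPKM in w1118 and at 97.9 and 82.0 in Shal495, a log2 difference of 0.86 ± 0.118 (adjusted p = 0.0432). The insulin-like peptide gene Ilp5, made in insulin-producing cells of the brain, stood at 9.46 and 9.72 against 19.8 and 27.3 FPKM, a log2 difference of 1.20 ± 0.170 (adjusted p = 0.0459). Ilp2 of the same cells stood at 54.7 and 44.3 against 93.0 and 74.3 FPKM (adjusted p = 0.0993), and Ilp3 at 14.8 and 10.8 against 17.9 and 20.2 (adjusted p = 0.186). The tachykinin gene Tk stood at 40.8 and 44.6 against 64.9 and 61.6 FPKM (adjusted p = 0.0611) and the diuretic hormone gene Dh44 at 33.9 and 36 against 50.9 and 49.3 (adjusted p = 0.0636). In all 6 genes both Shal495 libraries were above both w1118 libraries. Akh, Ilp5, Tk and Dh44 were named for the smallest p of the list, and Ilp2 and Ilp3 after their values were seen. The choice thus favoured this separation. Voom called 3 of the 39, with Akh (0.0443), Tk (0.0469) and Dh44 (0.0476) past the threshold and Ilp5 (0.0777) not. The calls of Akh and Ilp5 were lost with any 1 library left out (0.0554 to 0.189).

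The machinery of firing and transmission had no call. Of 14 voltage-gated sodium, calcium and leak channel genes, 47 transmitter receptor genes, 28 genes of transmitter synthesis and transport and 34 genes of synaptic vesicle release, 0 passed in limma, and voom called 1 gene, of synthesis and transport. At an unadjusted p under 0.05 there were 2, 6, 8 and 3 genes in these lists, and their median log2 differences were 0.13, 0.01, 0.03 and -0.01. Over all genes tested, 2.37% passed in limma and 1880 of 9628 had an unadjusted p under 0.05, so few calls would fall in lists of this size. The leak channel subunit gene unc80 stood at 47.7 and 50.5 FPKM in w1118 and at 63.8 and 59.2 in Shal495 (adjusted p = 0.149). The nicotinic receptor gene nAChRalpha7 stood at 24.8 and 25.5 against 33.9 and 34.6 FPKM, a log2 difference of 0.43 ± 0.082 (adjusted p = 0.082). ChAT, which makes acetylcholine, stood at 30.0 and 31.6 against 17.3 and 20.5 FPKM, a log2 difference of -0.68 ± 0.113 (adjusted p = 0.0657 in limma and 0.0412 in voom). Its exons overlap those of VAChT on the same strand, so its fragments may be shared. Acetylcholinesterase Ace stood at 34.3 and 33.8 against 26.5 and 26.6 FPKM (adjusted p = 0.111), and the fusion protein gene Snap25 at 190 and 159 against 131 and 135 (adjusted p = 0.177). In each of these genes the lines did not overlap, and none passed in limma. The genes were named for the smallest p of their lists, which favours such separation, so it says nothing about the lists.

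Activity-regulated genes also had no call in limma, 0 of 16 tested with 2 at an unadjusted p under 0.05, and voom called 1. Beside the lists of this paragraph, 2.37% of all genes tested passed in limma and 1880 of 9628 had an unadjusted p under 0.05. Arc1, which is induced by neuronal firing, stood at 147 and 98.9 against 99.3 and 71.0 FPKM, where the range of the w1118 libraries was as wide as the difference between the lines. CG14186 stood at 50.3 and 42.4 against 28.2 and 28.2 FPKM (adjusted p = 0.0602 in limma and 0.0411 in voom). Of 24 genes of calcium and cAMP signalling in learning, 0 passed in limma or voom and 2 had an unadjusted p under 0.05, and the adenylyl cyclase gene rut stood at 42.7 and 44.8 against 37.3 and 33.4 FPKM (adjusted p = 0.188). Of 23 glial genes 0 passed in limma or voom and 7 had an unadjusted p under 0.05. The glial transcription factor gene repo stood at 29.7 and 25.3 against 18.6 and 21.8 FPKM (adjusted p = 0.177).

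The following genes outside the lists were picked from the 228 calls after their values were seen, so that they stand for no group. Rab26, a small GTPase found on synaptic vesicles, stood at 18.5 and 17.5 FPKM in w1118 and at 33.8 and 32.8 in Shal495, a log2 difference of 0.85 ± 0.087 (adjusted p = 0.027). Aplip1, a scaffold that links JNK signalling to kinesin, stood at 39.9 and 40.7 against 59.0 and 60.3 FPKM (adjusted p = 0.0451). The kinesin gene Kif3C stood at 4.81 and 5.07 against 9.37 and 10.3, and Mical, an actin-oxidizing enzyme of axon guidance, at 23.4 and 24.6 against 40.2 and 40.1 FPKM. The genes of the cytokine-like growth-blocking peptides, Gbp2 (40.2 and 34.1 against 68 and 76.9 FPKM) and Gbp3 (23.9 and 21.2 against 38.5 and 37.3), rose as well. None of these 6 passed with any 1 library left out (0.0911 to 0.247).

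Housekeeping groups had medians of -0.16 to 0.11, where all genes had a median of -0.07 and quartiles of -0.23 and 0.08. The medians of mitochondrial ribosomal proteins and of glycolysis and trehalose lay above that upper quartile. With each library left out, the median of mitochondrial ribosomal proteins ran from -0.04 to 0.22. Of 77 cytosolic ribosomal protein genes, 70 mitochondrial ribosomal protein genes, 34 proteasome genes, 88 genes of oxidative phosphorylation and 21 genes of glycolysis and trehalose, 0 passed in limma, and 4, 9, 10, 10 and 3 had an unadjusted p under 0.05, while voom called 1, of oxidative phosphorylation. Their medians were -0.04, 0.08, -0.16, 0.07 and 0.11. Over all genes tested, 2.37% passed in limma and 1880 of 9628 had an unadjusted p under 0.05. In the proteasome list 33 of 34 genes were below 0, beside 6082 of 9628 genes tested. Prosbeta1 of this list stood at 77.6 and 78.8 against 61.4 and 59.6 FPKM (adjusted p = 0.0973). The gluconeogenic gene Pepck2 stood at 0.798 and 0.932 against 6.10 and 17.6 FPKM, a log2 difference of 2.63 ± 0.469 (adjusted p = 0.0745). Lists of autophagy and lysosome (48 tested) and of transposon silencing (12 tested) had 0 calls in limma or voom, with 5 and 3 at an unadjusted p under 0.05. In the secretion list of 24 genes 1 was called (4.17%, beside 2.37% of all genes). This was Sec31, a subunit of the COPII coat, which rose from 19.4 and 19.3 to 57.2 and 49.1 FPKM. Its log2 difference was 1.41 ± 0.106 (adjusted p = 0.0117). Its level in Shal495 was above the 9.55 to 20.9 FPKM of the other 10 libraries. The call was lost without any 1 library (0.0512 to 0.0843), and Sec31 exons overlap the antisense gene ana2.

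The remaining lists held 1 or 2 calls each. That is 4.76% of the amyloid precursor and tau list, 3.57% of sarcomere, 4.65% of cuticle and 7.14% of hemocyte genes tested, beside 2.37% of all genes. The gamma-secretase subunit gene pen-2 fell from 7.80 and 7.50 to 3.50 and 3.56 FPKM, 1 of 21 genes in the amyloid precursor and tau list, and voom ended this call (adjusted p = 0.0648). The flight muscle actin gene Act88F rose from 20.0 and 15.9 to 37.3 and 41.2 FPKM, 1 of 28 sarcomere genes. Of 43 cuticle genes, TwdlG fell from 16.6 and 14.1 to 5.73 and 5.56 FPKM and Cpr62Ba rose from 0.412 and 0.281 to 3.29 and 3.54. Cpr62Ba reached 1 FPKM in Shal495 alone and passed the filter through that line. Among 14 hemocyte genes the scavenger receptor gene Sr-CI fell from 10.5 and 9.98 to 1.85 and 2.21 FPKM, a log2 difference of -1.89 ± 0.138 (adjusted p = 0.0107). The phagocytosis receptor gene NimC1 of the same list stood the other way, at 1.04 and 0.498 against 3.67 and 3.60 FPKM (adjusted p = 0.0567 in limma and 0.0388 in voom, which called 3 of the 14). Outside the list, NimC4, a receptor for apoptotic cells, named after its values were seen, fell from 4.55 and 4.48 to 0.860 and 1.15 FPKM. Sr-CI passed without w1118 replicate 2 (0.0493) and in none of the other 3 fits (0.0578 to 0.0889). Of the other calls, pen-2, Act88F, TwdlG, Cpr62Ba and NimC4 passed in none of the 4 (0.0687 to 0.226).

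**Figure D5:**
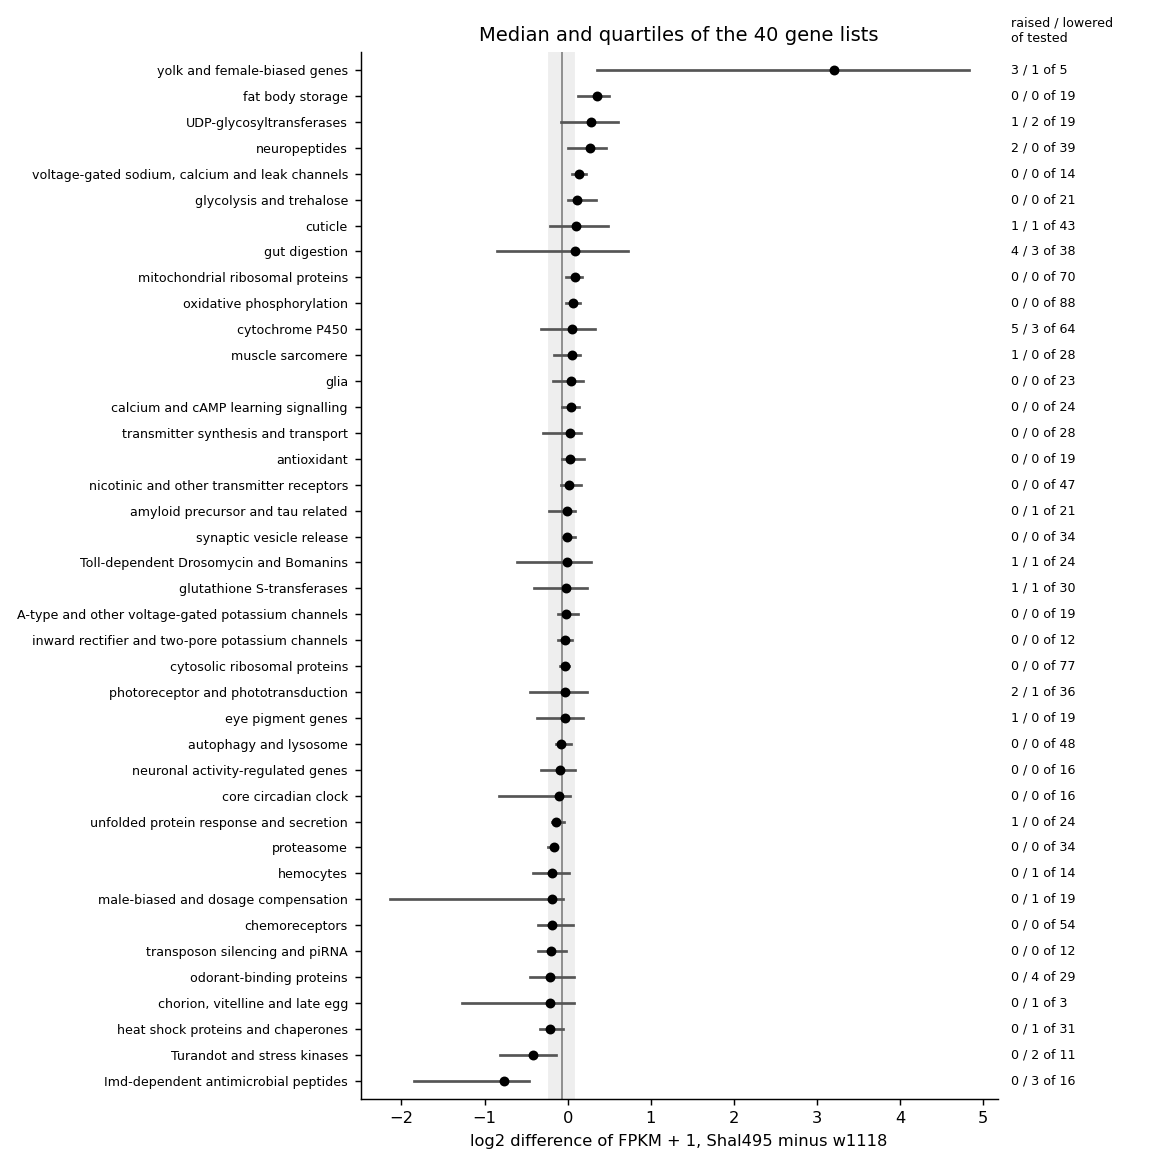
Median (point) and quartiles (line) of the log2 difference, Shal495 minus w1118, of the tested members of each of 40 gene lists, with counts of raised and lowered members at the right and the median and quartiles of all genes tested as grey line and band. Yolk genes lie highest at 3.20 on 5 genes and Imd-dependent peptides lowest at -0.77. Potassium channel and synaptic vesicle lists lie near the grey line. The list of sodium, calcium and leak channels lies at 0.13, above the upper quartile of all genes at 0.08.

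Genes were called at similar rates along the chromosomes, from 2.02% of genes tested on 3R to 2.66% on 3L among the large arms, and 1.12% on chromosome 4. Within 1 Mb of Shal 9 of 201 genes were called (4.48%), and over 2 Mb away on 3L 38 of 1533 (2.48%). Those 9 were GNBP1, CG7017, CG6951, Cyp12c1 and wnd, raised, and HipHop, CG11619, lncRNA:CR46216 and CG9452, lowered. The nearest were wnd (3L:19624406-19635783), a kinase of axon injury signalling, at 12.8 and 11.2 against 25.5 and 28.0 FPKM (adjusted p = 0.027), and CG9452 (3L:19501010-19503870), at 10.4 and 8.37 against 4.07 and 3.54 (adjusted p = 0.0457). They were 2 of 27 genes tested within 0.1 Mb. Neither passed with any 1 library left out (0.0881 to 0.215). Voom ended the call of CG6951 (0.0554). Elsewhere, and named after their values were seen, the photolyase gene phr (3.40 and 4.30 against 22.9 and 19.3 FPKM) and mre11 (5.94 and 6.5 against 16.9 and 17.7), were raised above the range of the other 10 libraries. Neither was called without w1118 replicate 1, Shal495 replicate 1 or Shal495 replicate 2 (0.0684 to 0.119), nor mre11 without w1118 replicate 2 (0.0599).

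The authors' deposited tables of GO terms and KEGG pathways for this comparison name 97 genes as up and 179 as down. Of these, 47 and 38 were called here in the same direction and 0 in the other, which is 30.8% of the genes in the authors' deposited tables and 37.3% of the 228. Of 188 that were tested here, 96 of 96 up and 92 of 92 down genes had the same sign. The authors' deposited tables are for the same comparison of the same libraries. The shared direction is therefore not independent evidence. Among the 179 genes that the authors' deposited tables give as down, 98 had at least 5 times the FPKM in w1118 replicate 1 than in each other library. In all, 823 genes had this profile. A gene that is up in Shal495 cannot have it, so the up genes offer no comparison. In the term manganese ion binding of the authors' deposited tables, 7 of 8 down genes had this profile, which are the sperm aminopeptidases S-Lap2, S-Lap3, S-Lap4, S-Lap5, S-Lap7 and S-Lap8 and loopin-1. The same 7 genes were those of the 8 in arginine and proline metabolism. By contrast, maltose alpha-glucosidase activity held 4 up and 0 down genes in the authors' deposited tables. Among the up genes of KEGG pathways, CG12224 stood at 0.457 and 0.101 FPKM in w1118 and at 5.28 and 5.98 in Shal495 (adjusted p = 0.0195), and CG18547 at 6.28 and 4.11 against 16.1 and 21.1 (adjusted p = 0.0425). CG12224 passed only without w1118 replicate 2 (0.0594 to 0.141 in the other fits), and CG18547 was lost without any 1 library (0.0894 to 0.192).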

How the data were processed

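The authors deposited FPKM per gene and library, made from poly(A) RNA with paired-end Illumina sequencing per the labels' protocols. The submitters' processing notes name BDGP6, Bowtie2 2.2.3, HISAT2 2.1.0 and TopHat2 with no roles; no counting tool or strand setting is given in the sources. The authors' enrichment tables also give a p-value and FDR per term, per the file headers. Members, lists and tests were chosen with earlier results of these data known. Log2(FPKM + 1) was fitted with limma 3.58.1 in R 4.3.3 (empirical Bayes with a mean-variance trend, two-sided), with Benjamini-Hochberg adjustment over the 9628 genes tested and a threshold of 0.05. SE is the moderated standard error. The pseudocount understates changes of weak genes. Library totals were recovered by finding the FPKM worth of 1 fragment at which FPKM times exon length (Ensembl 115) gives whole fragments within 0.02, which held for 97.7% of genes in all 4 libraries. Floors cover counting error only. Symbols were found for 99.1% of identifiers. Replicate numbers did not pair the samples (r = -0.03 between the deviations of the lines).

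Genes were named by rule: Shal, w and elav; the 12 most raised and 12 most lowered past the threshold with a mean of 5 FPKM in a line and no overlap; up to 4 members of a list with the smallest p; the 5 with the widest replicate gap per line at 10 FPKM or more; and called genes within 100 kb of Shal. Other names were chosen after their values were seen. Lists, 40 in all, are described by counts and medians with no set test. Alternatives were other pseudocounts, filters and scalings, a fold minimum of 2, no trend, the replicate number as a block, each library left out, and limma-voom on recovered fragments; voom on the genes of the FPKM filter was chosen after seeing the data. The fit was also checked on simulated data with known folds. Genes that share reads with near-identical copies (trypsins, attacins, cecropins, maltases, Cyp6a17 and Cyp6a23) are uncertain, as are those whose exons overlap a gene on the opposite strand: Yp1, tobi, deltaTry, Crg-1, Mal-A1, BaraA1, Obp59a, Ugt36E1, pen-2, Sec31, phr, mre11, CG6951, Gbp2 and Rab26, as well as Hk, sand, sei, KCNQ, AttC, DptB, rut, repo, Prosbeta1, tim, per, lncRNA:roX1, apolpp, elav, CG10472 and CG33340.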

Additional observations from a re-analysis of the deposited data

How the results depend on the processing

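The count of 228 genes past the threshold (112 raised, 116 lowered) moved most with the filter and the libraries used. With no filter on low values 24 genes passed (12 raised, 12 lowered). With the replicate number as a block, although the numbers do not pair the samples (r = -0.03), 96 passed (50 raised, 46 lowered), and 82 of the 228 were among them. With each library left out, counts ran from 21 to 138, raised from 10 to 39 and lowered from 11 to 99. Under the other alternatives they stayed within 1.5 times of the above. Voom on the same genes called 281, among them 197 of the 221 calls with a value in both. The directions of Shal and w were the same in each alternative, and Shal passed in none of them; voom on the same genes gave it an adjusted p of 0.0508. The direction of elav turned with median centring (0.001509) and quantile normalization (0.01413), that of ninaE with median centring (0.03018) and that of SPH93 with a pseudocount of 0.1 (-0.01368) and with voom (-0.6379, and -0.6384 on the same genes). With each library left out, log2 differences that changed sign ran from -1.655 to 3.529 for SPH93, -2.452 to 1.47 for Drs, -3.413 to 0.1546 for tim, -0.1017 to 0.8085 for Cp18, -0.4962 to 0.0748 for Cp7Fa, -0.4388 to 0.2007 for alphaTry and -0.1598 to 0.1004 for ninaE. The causes were not tested. With 2 libraries per line, differences of small size could not be told from the spread.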
